A study of Mus musculus with 3 samples.

Results

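The 7SK RNA and the 7 protein-coding genes that act with it to hold or form P-TEFb were followed in the cytosol of stimulated macrophages. The 8 genes, Rn7sk, Larp7, Mepce, Hexim1, Hexim2, Cdk9, Ccnt1 and Ccnt2, were taken by symbol from the transcript identifiers and joined by Ensembl identifier to the gene tables, 8 of 55536 Ensembl genes in all. The cells were C57BL/6J macrophages grown from bone marrow, treated with Lipid A, the part of bacterial lipopolysaccharide that TLR4 senses, at 100 ng/ml for 10 minutes. RNA of the cytosolic fraction, 1 µg per library, was depleted of ribosomal RNA and sequenced as total RNA, with a labelled size range of 250 to 400. The series has this 1 group with 3 replicates and no untreated cells, so all values are levels after stimulation and none is an induction. Coordinates are those of mm10 with GENCODE M21. All 3 replicates carry the same donor identifier, and nothing in the labels says that they came from separate animals or cultures. The p-values therefore say nothing of variation between animals, and differences between these samples may be technical. Those of the counting test described below set such differences against counting error alone.

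7SK is a short noncoding RNA made by RNA polymerase III, and most of it is known to reside in the nucleus. The capping enzyme MePCE modifies its 5′ end and LARP7 binds its 3′ end, and together they keep the RNA stable. HEXIM1 or HEXIM2 bound to 7SK inhibits P-TEFb, the kinase CDK9 paired with cyclin T1 or T2. P-TEFb freed from 7SK phosphorylates RNA polymerase II, DSIF and NELF and so releases paused polymerase, a step on which many TLR4 response genes of macrophages depend.

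The 5′ hairpin of human 7SK holds the GATC repeats (GAUC in the RNA) that HEXIM1 is known to contact, so the same end of the mouse RNA is printed with each GATC in capitals. It comes from the minus strand of chr9:78175303-78175633 (mm10), from GENCODE M21 transcripts, bases 1 to 110 of 331, written with T for U.
Rn7sk, bases 1 to 110: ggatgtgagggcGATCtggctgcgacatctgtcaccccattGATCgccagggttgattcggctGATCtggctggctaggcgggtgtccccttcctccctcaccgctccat
The 3 matches start at bases 13, 42 and 64, and the whole RNA holds no other. GATC reads the same on both strands. At least 1 GATC lay in the first 110 bases of 29.9% of the 4689 M21 transcripts of 300 to 360 bases, and 9.15% of those transcripts held 3 or more over their whole length.

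The mouse genome also carries many annotated partial copies of 7SK, and the point where the closest one leaves the gene decides which reads can be assigned. Gm24447 (chr15:93234363-93234700, plus strand, mm10) is identical to Rn7sk over its first 241 bases. The ends of both RNAs are printed from base 222, with capitals from base 242, the first that differs.
Rn7sk, bases 222 to 331: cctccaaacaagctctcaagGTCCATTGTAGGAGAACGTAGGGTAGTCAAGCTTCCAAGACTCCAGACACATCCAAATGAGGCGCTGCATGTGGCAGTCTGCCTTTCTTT
Gm24447, bases 222 to 338: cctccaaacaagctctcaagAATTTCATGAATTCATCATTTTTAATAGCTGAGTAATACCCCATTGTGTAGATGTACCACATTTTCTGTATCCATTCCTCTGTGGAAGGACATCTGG
Reads that lie wholly within the shared bases cannot be told apart by sequence. The last 90 bases of Rn7sk are the stretch that tells it from this copy.

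Gene counts totalled 33825547, 54667365 and 43176007 in replicates 1, 2 and 3, and 9847, 9828 and 10046 genes reached 1 TPM, a transcript share that allows for length and has the same total in each library. A count of 0 allows up to 3 counts, which on a transcript of 1 kb is 0.0450, 0.0294 and 0.0395 TPM, a limit that covers counting error only. All 15 macrophage markers reached 1 TPM in every library, with summed levels of 11057, 9823 and 11395 TPM. Of the other markers, 3 of 8 neutrophil genes reached it (summed 24.3, 38.8 and 36.8 TPM, Ly6g listed at 0), 1 of 6 dendritic genes (2.12, 2.41 and 2.25 TPM), and none of the T and NK, B, stromal or erythroid genes, the last all listed at 0. Of 9 long noncoding RNAs with a known nuclear residence, 6 reached 1 TPM in every library (summed 929.7, 484 and 405 TPM), Malat1 among them at 597, 383 and 304 TPM, and Meg3 was listed at 0. Of 8 such RNAs tested, 7 differed between libraries in the counting test described below, and each of the 7 had most depth-normalized counts in replicate 1. Over all 13494 genes tested, 49.2% differed, and 19.9% differed with most counts in replicate 1. Fewer cells with a transcript and less of it per cell cannot be told apart in these bulk samples.

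Of the 8 genes, 7 reached 1 TPM in every library, and Hexim2 did in none. By mean TPM they ran from Rn7sk through Cdk9, Ccnt1, Mepce, Hexim1, Larp7 and Ccnt2 to Hexim2. Among neighbours in that order, the ranges over libraries overlapped for Mepce and Hexim1 and for Larp7 and Ccnt2, and each of those orders held in 2 of 3 libraries. All other neighbours kept their order in 3 of 3 libraries, with ranges that did not overlap. The place of Ccnt1 depended on the table: in the second quantification it had 2.39 TPM in replicate 2 and 2.15 TPM in replicate 3, below Mepce at 2.58 and 2.16 TPM. With coding transcripts alone its mean was 5.12 TPM, below both Mepce and Hexim1.

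**Figure D1:**
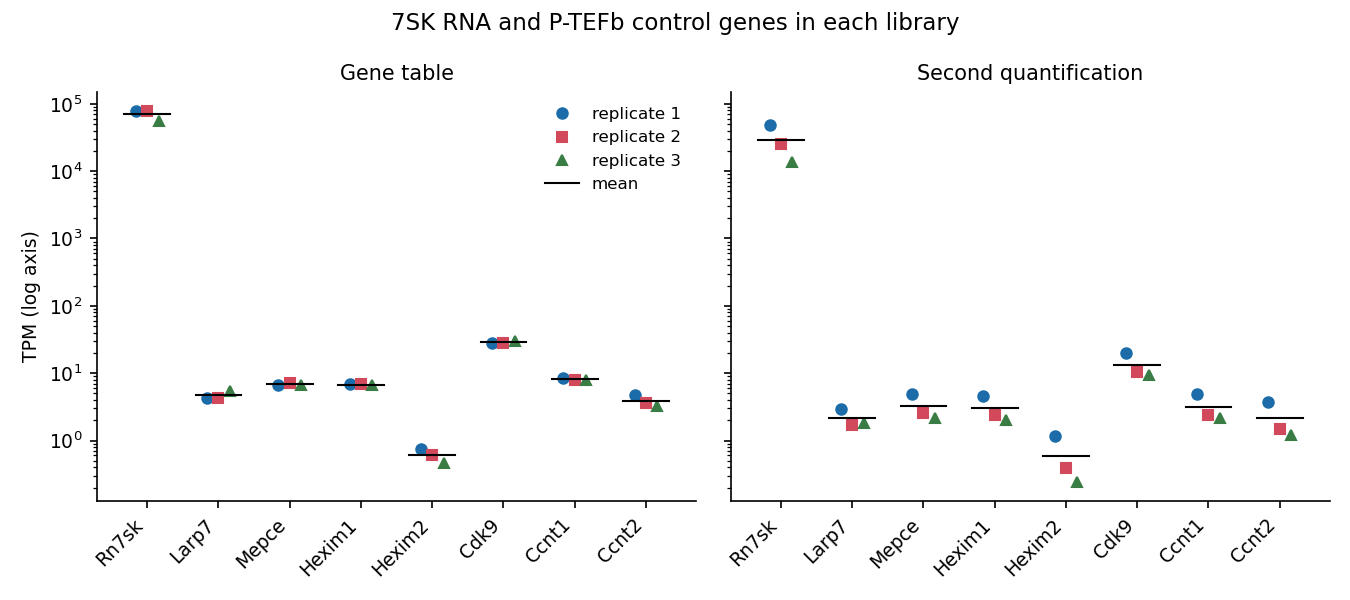
TPM of each gene (log axis) in replicates 1, 2 and 3, in the gene tables on the left and in the second quantification on the right, with a line at the mean. Rn7sk averaged 71004 TPM in the gene tables, Cdk9 28.6 TPM, and Hexim2 stayed below 1 TPM in every library.

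In the plot of levels by library, 7SK stands far above the messenger RNAs that encode its partners. It had 79313, 77652 and 56047 TPM in replicates 1, 2 and 3, a mean of 71004 ± 12980 TPM (SD, n = 3). In the gene tables that mean was the third highest of all genes, below Rn7s1 and Rn7s2, both entries of 7SL RNA. Replicates 1 and 2 lay close together and replicate 3 was lowest. Its reads numbered 476250, 942594 and 468841, which made 1.41%, 1.72% and 1.09% of gene counts, a mean of 1.41% ± 0.319 (SD, n = 3). By this share, which takes no account of length, replicate 2 was highest and replicate 3 again lowest. The ratio of 7SK to the summed cyclin T messages, Ccnt1 and Ccnt2, was 5977, 6794 and 5054 in TPM, a mean of 5941 ± 870 (SD, n = 3), with replicate 3 lowest. With counts over the length listed in the gene tables it was 1717, 2559 and 1762, with replicate 1 lowest. The mean was 2013 ± 473 (SD, n = 3). That listed length is 331 bases for 7SK in each library but varies for the cyclins. Ccnt1 has 4974, 4765 and 5165 bases and Ccnt2 4354, 4583 and 5075 in replicates 1, 2 and 3.

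Whether a gene's counts differed between libraries beyond counting noise was tested for every gene by a chi-square test on depth-normalized counts (TMM scaling), with Benjamini-Hochberg adjustment over 13494 genes. The test compares these 3 libraries and not conditions. It called 5 of the 8 genes at 0.05, against a background of 49.2% of all genes tested. For 8 genes that count lies near the background. The median ratio of highest to lowest library was 1.16 over all genes tested, and 1.12 for those with a mean of 1 TPM or more.

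7SK had 601659, 772944 and 474078 depth-normalized counts, a 1.63-fold difference between replicates 2 and 3 (chi-square of 78819, adjusted p too small to be written as other than 0). It was called under every alternative run, with ratios of 1.27 to 1.63. At such a depth counting error is minute, and the spread between libraries sets the precision. 7SK had a gene-wise coefficient of variation of 16.9% in edgeR. The median gene-wise value over all genes was 10.9%, and the value common to all genes was 14.4%.

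**Figure D2:**
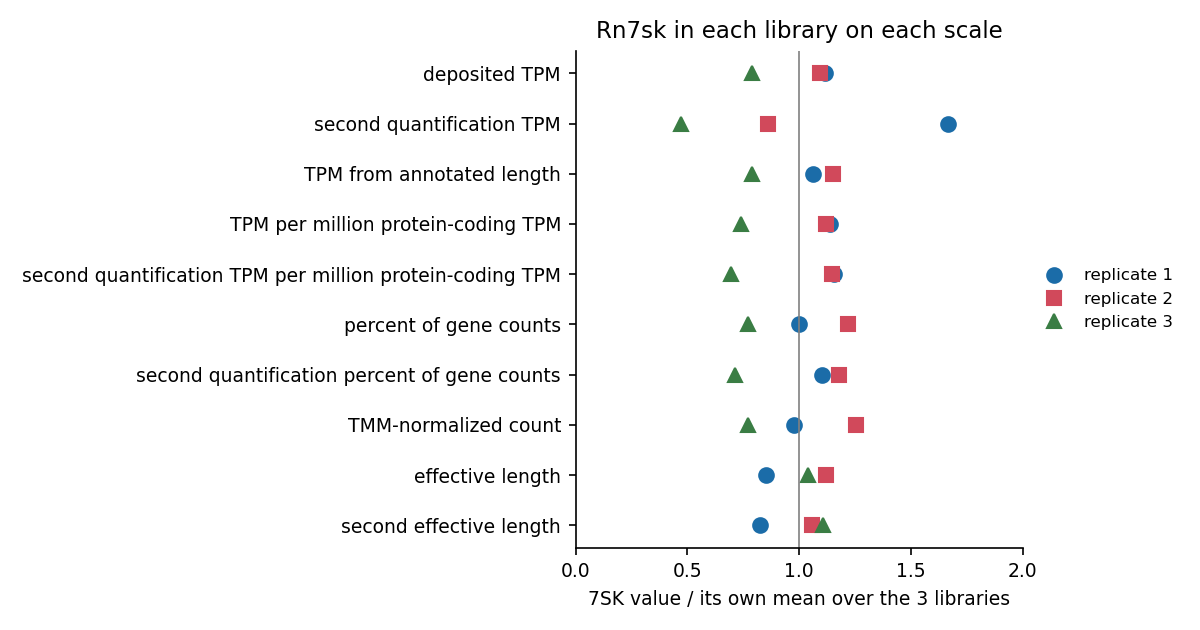
Rn7sk in replicates 1, 2 and 3 divided by its own mean over the 3 libraries, on each scale of the deposited and derived values, with both effective lengths in the last rows. Replicate 3 is lowest in all rows of levels and counts. The highest library is replicate 1 on the TPM scales based on effective length. It is replicate 2 on the scales of counts and of listed length, which is drawn as annotated length.

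The order of replicates 1 and 2 turned on the length by which counts were divided. The deposited effective length of 7SK, the number of positions where a fragment can start, was 90.1, 118.9 and 110.2 bases, of 331 annotated. For the single long transcript of Hexim1 the effective length fell short of the annotated 3495 bases by 251, 218 and 228 bases in replicates 1, 2 and 3, a measure of fragment length. Replicate 2 thus had the shortest fragments by this measure and the most 7SK counts. The second quantification did not share that order. Its effective length of 7SK was 98.0, 126 and 132 bases, longest in replicate 3, where depth-normalized 7SK counts were fewest. Of 9 other entries of short noncoding RNAs that differed between libraries, 7 also had most counts in replicate 2 and 2 in replicate 1. Rn7s1 and Rn7s2 are among the 7, and the 2 entries named Rmrp fell 1 on each side. Over all genes tested, 11.6% differed with most counts in replicate 2. The part of fragment length in these differences was not tested. With TPM computed from the listed length of each gene, 7SK had 59103, 64002 and 43860 TPM, a mean of 55655 ± 10505 (SD, n = 3). The scale plot shows replicate 2 as highest there.

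The second quantification, made apart from the gene tables, assigned 489217, 938463 and 467800 counts to 7SK, 1.01 times those of the gene tables on average. Its TPM were far lower and more spread, at 48705, 25103 and 13826, a mean of 29212 ± 17799 TPM (SD, n = 3). Replicate 1 was highest and replicate 3 lowest. Of all genes in that quantification, 5 that were listed at 0 TPM in the gene tables took 39.9%, 66.8% and 74.1% of all TPM, which left 17.2%, 8.95% and 8.11% to nuclear protein-coding genes, against 23.6%, 23.5% and 25.6% in the gene tables. The 5 were the miRNA genes Gm23935, Gm24270 and Gm24245 and the processed pseudogenes Gm12895 and Gm12896. Each of the 5 lay above 7SK in every library of that quantification, as did Rn7s1 and Rn7s2. Rescaled so that nuclear protein-coding genes had the full TPM total, 7SK stood at 282955, 280367 and 170575 in the second quantification and at 335592, 329904 and 218765 in the gene tables. On that common scale both quantifications put replicates 1 and 2 close together and replicate 3 lowest.

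Beside other RNAs of its kind, 7SK kept a near-constant ratio to Rpph1, the RNA of ribonuclease P. That ratio of TPM was 1.51, 1.52 and 1.37, a mean of 1.47 ± 0.0839 (SD, n = 3), and 1.5, 1.5 and 1.36 in the second quantification. Against 7SL, the RNA of the signal recognition particle (Rn7s1 and Rn7s2 summed), the TPM ratio was 0.138, 0.132 and 0.0937, 1.47-fold between the highest and lowest library. Against Rmrp, the RNA of ribonuclease MRP (2 entries of that name summed), it was 2.71, 3.35 and 2.30, 1.45-fold. Those entries had 10613, 6051 and 6414 TPM and 18604, 17163 and 17949 TPM in replicates 1, 2 and 3. The 5 genes with a profile most like that of 7SK over the 3 libraries were Gm24305, an snRNA gene, the lincRNA Epb41l4aos, Pdzk1ip1, Csf1 and Rpph1. Likeness was the largest difference in centred log2(TPM + 1), 0.048 for Gm24305 and 0.097 for Rpph1, and 6 of 3897 genes compared lay within 0.1. With 3 points each, that is a description only.

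The annotated copies took almost none of these reads. A search of M21 transcripts found 195 misc_RNA genes on 20 chromosomes that align to 7SK, with a median identity of 75.5%. Most stop at a similar place, with 125 alignments that end between bases 230 and 250, a median last base of 239, and 5 that reach base 300 or beyond. Of the copies, 155 (79.5%) hold a GATC in their first 110 bases. Only 5 match with 95% identity or more over at least 200 bases, Gm24447 among them.

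Summed over all copies, counts were 52.1, 37.7 and 17.1 in replicates 1, 2 and 3, or 0.0109%, 0.00400% and 0.00364% of the counts of 7SK and its copies together. The second quantification gave them 483, 490.5 and 257 counts, or 0.0986%, 0.0522% and 0.0548%. A count in any library was given to 24 copies in the gene tables, and 3 had one in every library: Gm26035 with 23.1, 7.32 and 1.64 counts, Gm24146 with 12.2, 14.0 and 8.0, and Gm26315 with 3.84, 2.91 and 1.41. Gm24447, whose shared bases are printed above, received 0, 1.48 and 0 counts in the gene tables and 59.0, 275 and 139 in the second quantification. How the reads of the shared part were divided is the authors' estimate, and the level of any single copy is therefore uncertain.

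Among the proteins that bind 7SK, the capping enzyme gene Mepce (chr5:137781906-137787655) had 6.73, 7.12 and 6.74 TPM, a mean of 6.86 ± 0.222 (SD, n = 3), from 1105, 1792 and 1445 counts. The 3 libraries were close, with a highest to lowest ratio of 1.05 in depth-normalized counts (adjusted p = 0.465, chi-square test). Of 9152 protein-coding genes at 1 TPM or more in every library, 46.6% had a lower mean.

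Larp7 (chr3:127536714-127553349), whose protein holds the 3′ end of 7SK, had 4.21, 4.35 and 5.47 TPM, a mean of 4.68 ± 0.691 (SD, n = 3). Depth-normalized counts of 651, 692 and 793 put replicate 3 highest, the library in which 7SK was lowest. The difference of 1.22-fold passed the counting test (adjusted p = 0.00291) and did not without replicate 3 (adjusted p = 0.418). Larp7 was below Mepce in 3 of 3 libraries, at 0.626, 0.611 and 0.812 times its TPM. The mean log2 ratio was -0.56 ± 0.23 (SD, n = 3), and an exact two-sided sign-flip permutation test gave p = 0.25, the smallest that 3 libraries allow, before and after adjustment over the 5 ratios tested.

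Hexim1 (chr11:103116231-103119725), which encodes the main inhibitor of P-TEFb, had 6.81, 6.80 and 6.59 TPM, a mean of 6.73 ± 0.124 (SD, n = 3). Depth-normalized counts were 1860, 1866 and 1652, nearly equal in replicates 1 and 2 and lower in replicate 3. The ratio of 1.13 passed the counting test (adjusted p = 0.000900) but not without replicate 3 (adjusted p = 0.948). Hexim1 is annotated with 1 transcript, so its value depends on no division between isoforms.

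Hexim2 (chr11:103132429-103139876), its paralogue on the same strand of the same chromosome, had 0.740, 0.600 and 0.470 TPM, a mean of 0.603 ± 0.135 (SD, n = 3), from 56, 78 and 42 counts. The values are low in all 3 libraries and lie above the limit that a count of 0 allows. Replicate 1 was 1.67-fold above replicate 3 in depth-normalized counts, which did not pass the test (adjusted p = 0.0603). It passed in the second quantification (adjusted p = 0.0108) and without replicate 2 (adjusted p = 0.0292). Hexim1 exceeded Hexim2 9.20-, 11.3- and 14.0-fold in TPM, a mean of 11.5 ± 2.41 (SD, n = 3). The log2 ratio of 3.50 ± 0.30 had the same sign in 3 of 3 libraries (p = 0.25, exact sign-flip permutation test), and it was 2.56 in the second quantification, where Hexim2 received 1.38 times as many counts as in the gene tables.

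**Figure D3:**
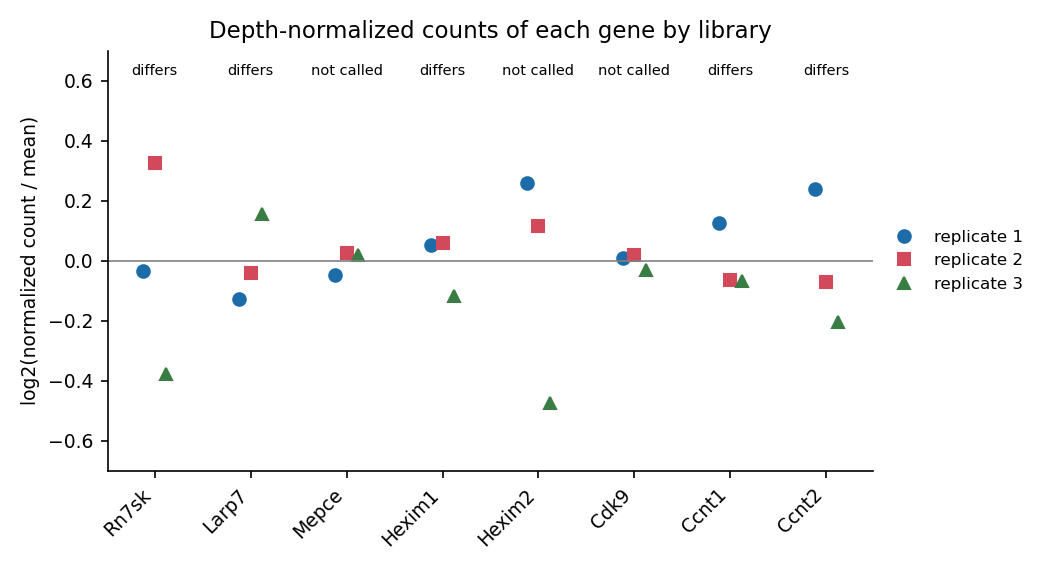
Depth-normalized counts of each gene in replicates 1, 2 and 3 as log2 of the count over the mean of the 3 libraries, with the outcome of the counting test above each gene. Rn7sk (1.63-fold) and Hexim2 (1.67-fold) spread most, Mepce (1.05-fold) and Cdk9 (1.03-fold) least, and replicate 3 is lowest for Rn7sk, Hexim1, Hexim2, Cdk9, Ccnt1 and Ccnt2 and highest for Larp7.

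Cdk9 (chr2:32705784-32713076), the kinase of P-TEFb, was the highest of the 7 messenger RNAs and among the steadiest. It had 28.0, 27.6 and 30.3 TPM, a mean of 28.6 ± 1.44 (SD, n = 3), from 2556, 3962 and 3105 counts. As the plot of depth-normalized counts shows, its libraries differed by 1.03-fold, which the test did not call (adjusted p = 0.430). Its gene-wise coefficient of variation was 5.91%, against a median of 10.9% over all genes, and 85.2% of the 9152 protein-coding genes were lower.

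The cyclin partners were lower and both were highest in replicate 1. Ccnt1 (chr15:98538689-98570923) had 8.55, 7.83 and 7.86 TPM, a mean of 8.08 ± 0.407 (SD, n = 3). Its depth-normalized counts of 3401, 2981 and 2978 differed 1.14-fold (adjusted p = 3.10e-07), with replicates 2 and 3 alike. Ccnt2 (chr1:127774164-127808061) had 4.72, 3.60 and 3.23 TPM, a mean of 3.85 ± 0.776 (SD, n = 3). Its depth-normalized counts of 1632, 1316 and 1200 differed 1.36-fold (adjusted p = 1.76e-13). Without replicate 1 neither passed the test (adjusted p = 0.962 for Ccnt1 and 0.0519 for Ccnt2). Replicate 1 is also the library in which the listed nuclear RNAs called above had most depth-normalized counts. The part of nuclear RNA in the cyclin values was not tested. The antisense gene 9330020H09Rik overlaps Ccnt1 with 48.4, 36.3 and 40.4 counts, and since no source says that the counting used strand, reads of this pair cannot be told apart.

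In TPM, Ccnt1 exceeded Ccnt2 1.81-, 2.17- and 2.43-fold, a mean of 2.14 ± 0.312 (SD, n = 3; log2 ratio 1.09 ± 0.21). Cdk9 was 2.11, 2.41 and 2.73 times the sum of both cyclins, a mean of 2.42 ± 0.308 (SD, n = 3; log2 ratio 1.27 ± 0.18). The HEXIM messages together were 0.569, 0.647 and 0.637 times that sum, a mean of 0.618 ± 0.0425 (SD, n = 3; log2 ratio -0.70 ± 0.10). Each of the 3 ratios had 1 sign in 3 of 3 libraries and p = 0.25 in the exact sign-flip permutation test, also after adjustment over the 5. These are ratios of RNA and say nothing of protein.

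**Figure D4:**
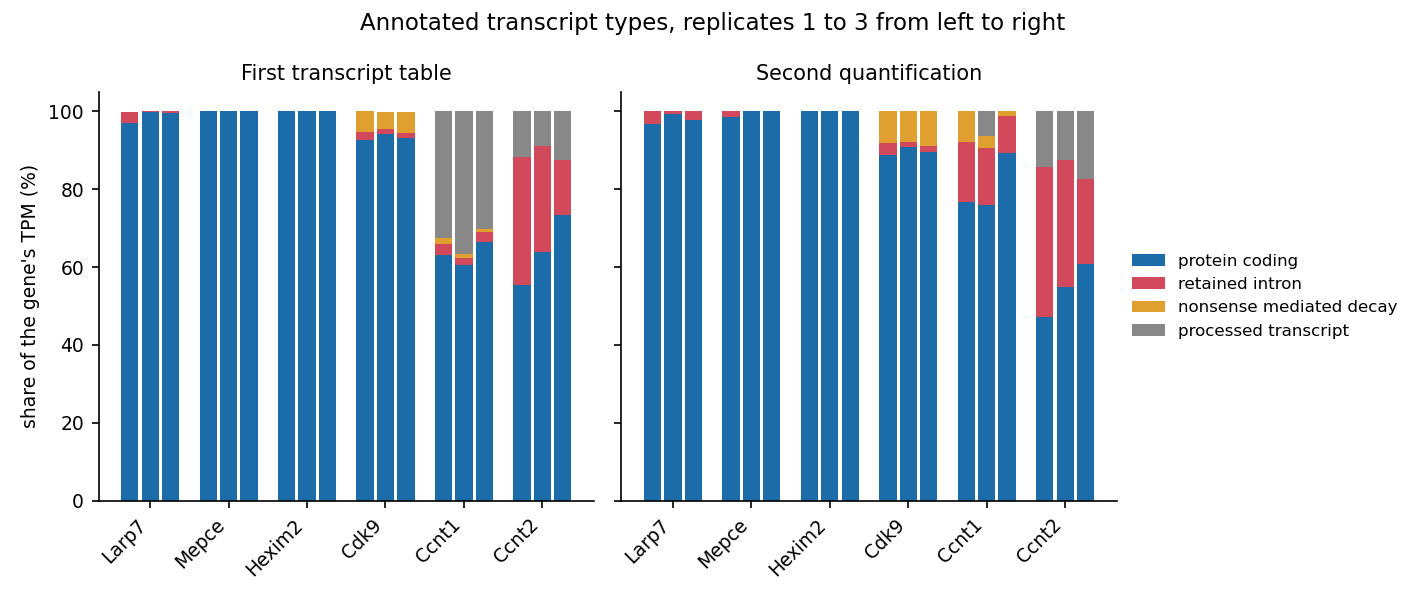
Share of each gene's TPM (%) held by annotated transcript types, as stacked bars for replicates 1, 2 and 3 of 6 genes, in the first transcript table on the left and the second quantification on the right. Protein-coding transcripts held 55.3%, 63.9% and 73.5% of Ccnt2 in the first table, and a processed transcript held 33.2% of Ccnt1 there on average and 2.07% in the second.

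Part of the cyclin TPM came from transcripts that are not annotated as coding, as the plot of transcript types shows. For Ccnt1, the longest coding transcript Ccnt1-208 of 7397 bases held 95.8% of counts but 63.4% ± 2.97 of TPM (SD, n = 3). The processed transcript Ccnt1-203 of 683 bases held 3.18% of counts and 33.2% ± 3.19 of TPM. In the second quantification Ccnt1-208 held 76.9% ± 0.941, and Ccnt1-203 held 0%, 6.22% and 0% in replicates 1, 2 and 3.

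For Ccnt2, transcripts with a retained intron held 33.1%, 27.2% and 13.9% of TPM in replicates 1, 2 and 3. They held 38.7%, 32.5% and 22.0% in the second quantification, so replicate 1 was highest and replicate 3 lowest in both. Coding transcripts held 55.3%, 63.9% and 73.5% in the first table, in the opposite order. Coding transcripts of Ccnt2 alone came to 2.61, 2.30 and 2.38 TPM, a mean of 2.43 ± 0.161 (SD, n = 3), a narrower spread than that of the whole gene.

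With coding transcripts alone, a scale added after the values were seen, Ccnt1 had 5.39, 4.74 and 5.23 TPM, and its ratio to Ccnt2 was 2.07, 2.06 and 2.20 (mean 2.11 ± 0.0777, SD, n = 3). Cdk9 was then 3.24, 3.69 and 3.70 times the cyclins together (mean 3.55 ± 0.262, SD, n = 3). The HEXIM messages were 0.944, 1.05 and 0.928 times the cyclins (mean 0.974 ± 0.0671, SD, n = 3), above them in replicate 2 and below them in replicates 1 and 3. The excess of cyclin over HEXIM messages in the whole-gene TPM therefore depended on the noncoding cyclin transcripts.

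For Larp7, Mepce and Cdk9, 1 coding transcript held most of the TPM. Larp7-201 held 98.8% ± 1.43 of the TPM of Larp7, Mepce-201 held 88.1% ± 7.89 of that of Mepce, and Cdk9-201 held 85.0% ± 2.16 of that of Cdk9 (SD, n = 3 each). Transcripts of Cdk9 annotated for nonsense-mediated decay held 5.08% ± 0.515. For Hexim2 no transcript dominated in both tables, which disagreed at these low counts: Hexim2-201 held 52.0% ± 2.63 in the first and 24.8% ± 5.03 in the second, and Hexim2-205 held 2.25% ± 3.90 and 43.7% ± 10.4 (SD, n = 3 each).

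Between the 2 quantifications, protein-coding genes fell by 1.16 on the log2 scale in the second at the median over 5901 genes. Relative to that shift, Larp7, Mepce, Hexim1 and Cdk9 lay within 0.1 of it (0.04, -0.01, -0.06 and -0.03). Rn7sk was -0.30, Ccnt1 -0.27 and Ccnt2 0.18 from it, and Hexim2 0.93, the farthest of the 8. The median covers genes that averaged 5 TPM or more in either quantification, which Larp7, Ccnt2 and Hexim2 did not. For Hexim2, at 56, 78 and 42 counts, the log2 ratio itself was 0.58, -0.51 and -0.74 in replicates 1, 2 and 3.

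The genes around this switch were read from lists of partners, 91 genes in all, of which 86 reached 1 TPM in every library. The counting test called 37 of 86 tested, or 43.0%, a share near the background of 49.2%, with a median ratio of 1.1 against 1.12 over all tested genes that averaged at least 1 TPM. Of the 86 tested, 10 were called with most depth-normalized counts in replicate 1, 7 in replicate 2 and 20 in replicate 3. Of all 13494 genes tested, 2692 (19.9%), 1568 (11.6%) and 2385 (17.7%) were called in these ways. Over the 91 genes the median level was 7.12 TPM.

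**Figure D5:**
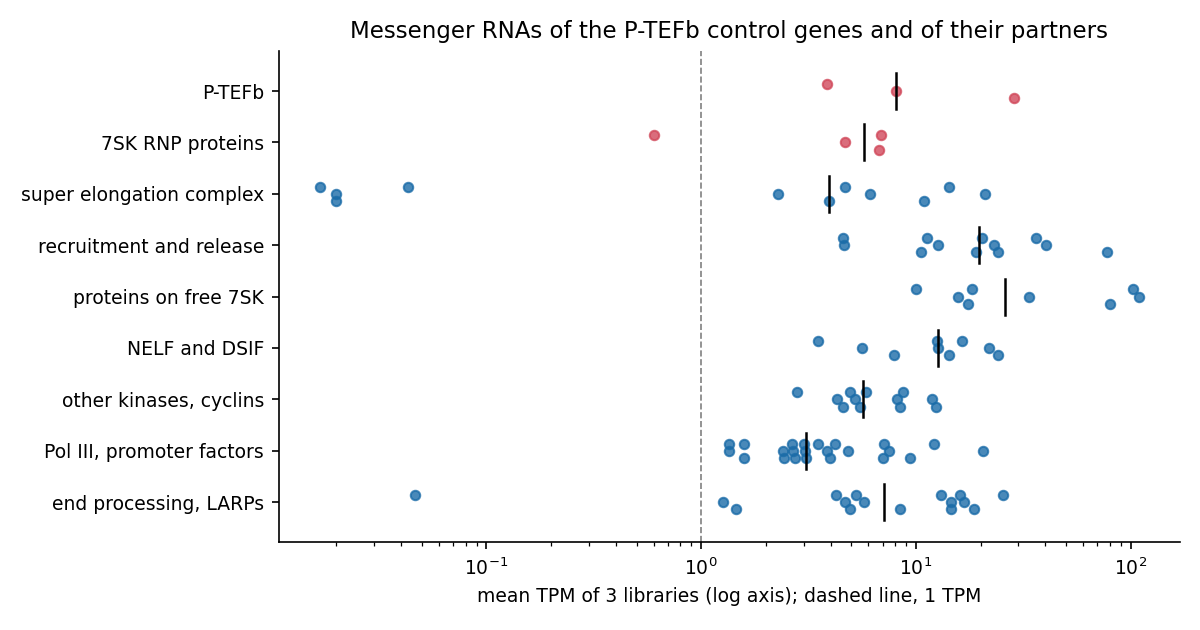
Mean TPM over the 3 libraries (log axis) of the messenger RNAs of P-TEFb and of the 7SK-binding proteins at the top and of 7 lists of partner genes below, each point a gene, with a line at each list's median and a dashed line at 1 TPM. Rn7sk is left out of the second row, and the medians of the partner lists run from 3.11 TPM for RNA polymerase III and its promoter factors to 25.9 TPM for proteins reported on free 7SK.

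RNA-binding proteins reported on 7SK that lacks P-TEFb were the highest of these lists, with a median of 25.9 TPM (21.6, 25.5 and 30.7 TPM in replicates 1, 2 and 3). All 8 were called with most depth-normalized counts in replicate 3, which held for 17.7% of all genes tested. For Hnrnpa3 replicates 2 and 3 were nearly equal, at 14152 and 14157 such counts. Hnrnpa2b1 had 96.1, 108 and 124 TPM, Hnrnpa3 85.8, 106 and 115 TPM, and Hnrnpk 74.9, 80.0 and 86.3 TPM. Hnrnpr (9.36, 9.60 and 11.0 TPM) and the helicase gene Dhx9 (14.6, 15.0 and 17.5 TPM) were the lowest.

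Factors that recruit P-TEFb or free it from 7SK were all above 1 TPM, with a median of 19.8 TPM, and 7 of 12 were called. Ppp1ca, a protein phosphatase subunit, had 74.6, 73.8 and 84.5 TPM, the bromodomain gene Brd2 38.0, 40.6 and 41.8 TPM, and the splicing factor gene Srsf2 31.2, 35.5 and 41.7 TPM. Each of these was called and had most depth-normalized counts in replicate 2 or 3. Brd3 (4.59 ± 0.592 TPM) and Jmjd6 (4.61 ± 0.22 TPM; SD, n = 3 each) were lowest and not called.

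The super elongation complex, which carries P-TEFb, was uneven. Of its 11 genes 7 were above 1 TPM, with 4 of the 7 tested called, and its median was 3.94 TPM. The scaffold gene Aff1 had 20.8, 20.5 and 21.7 TPM and Aff4 15.1, 14.2 and 13.8 TPM, while Aff3 and Eaf2 averaged 0.0200 and 0.0167 TPM. Eaf1, a partner of the ELL factors, had 9.84, 10.6 and 12.3 TPM.

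Of the targets of CDK9, NELF and DSIF with their partners had a median of 12.8 TPM, and 3 of 9 were called. Supt4a and Supt5, both parts of DSIF, had 21.6, 24.7 and 26.4 TPM and 15.9, 16.3 and 16.8 TPM. Polr2m had 18.9, 20.5 and 25.9 TPM, and the NELF subunit genes Nelfcd (3.49 ± 0.288 TPM) and Nelfa (5.63 ± 0.0700 TPM; SD, n = 3 each) were lowest and not called. Other kinases of RNA polymerase II and their cyclins had a median of 5.75 TPM, with 5 of 12 called. All 12 had a lower mean than Cdk9, led by Cdk11b (12.4 ± 0.801 TPM) and Cdk13 (11.9 ± 0.474 TPM), with Mnat1 lowest (2.78 ± 0.341 TPM; SD, n = 3 each).

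RNA polymerase III and the factors of promoters like that of 7SK were the lowest list, at a median of 3.11 TPM, though all 23 were above 1 TPM. The counting test called 4 of 23, against 49.2% of all genes tested. The test has less power at low counts, and the part of depth in this number was not tested. Maf1, a repressor of RNA polymerase III, was highest with 17.1, 21 and 23.7 TPM, and Snapc5 had 11.9, 12.2 and 12.3 TPM. Snapc3, a subunit of the complex that binds promoters of this kind, had 1.48, 1.33 and 1.22 TPM, and its depth-normalized counts of 246, 183 and 154 differed 1.60-fold (adjusted p = 0.000145, chi-square test). Polr3g, a subunit of the polymerase, was as low on average, with 1.23, 1.27 and 1.52 TPM. Of La, LARP relatives and U6 proteins 15 of 16 were above 1 TPM, and 6 of 15 tested were called. Ssb, which encodes the La protein that binds new RNA polymerase III transcripts, had 22.9, 24.6 and 28.9 TPM, the MePCE relative Bcdin3d 1.26 ± 0.110 TPM (SD, n = 3), and Larp6 0.0467 TPM. Lsm6 was more than 2-fold apart between libraries in TPM, with 3.62, 7.37 and 6.25, and 1.29-fold in depth-normalized counts (adjusted p = 0.00215).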

How the data were processed

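Total RNA-seq libraries from 3 replicates of 1 group were used. Expected counts, TPM and effective lengths in the gene tables and first transcript tables were deposited by the authors, from alignments to mm10 with annotation M21, per the text files beside the tables. Estimated counts and TPM of the second transcript tables were deposited by the authors from the same assembly and annotation. The column layouts are those of RSEM and kallisto; tool names, versions and strandedness: not given in the sources used here. No low-quality or depth filter is recorded. Entries other than Ensembl genes held 0.449%, 0.203% and 0.141% of counts; library sizes and tests omit them. All Ensembl identifiers matched M21.

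Symbols and coordinates came from M21. Expected counts were rounded. Depths were 33825547 to 54667365 gene counts, and intervals cover counting error only, since no molecular identifiers are recorded. Each gene with a summed count of 30 or more was tested by chi-square against TMM sizes (edgeR 4.0.16), with Benjamini-Hochberg adjustment at 0.05; an intercept-only edgeR model gave the spread. Ratios were tested by exact two-sided sign flips. Copies of 7SK were found with BLAST 2.17.0 (E-value up to 1e-10). Second and first TPM were compared with 0.1 added, where either reached 5 TPM. DESeq2 1.42.0 gave alternative size factors. Software was R 4.3.3, matplotlib 3.10.9, pandas 2.3.3, scipy 1.17.1, numpy 2.4.6 and Python 3.11.15, and the procedures were tested on simulated data.

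The genes and lists were chosen with earlier results of these data known. Named were the 8 genes, the 3 highest and 2 lowest of each list, genes with 2-fold differences between libraries at a mean of 5 TPM or more, the 5 genes most like 7SK, and 7SK copies with counts. Some are not reported, and Gm24447, Gm23935, Gm24270, Gm24245, Gm12895 and Gm12896 were named after their values were seen. Of the listed symbols Gdown1 matched none; it is an older name of Polr2m. Alternatives varied scale, length, quantification, pseudocount, filters, normalization and libraries. No comparison between conditions was possible in 1 group.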

Additional observations from a re-analysis of the deposited data

How the results depend on the processing

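No paired analysis was possible because the series has 1 group. The mean level of Rn7sk, 71004 TPM as deposited, was 226277 when rescaled over nuclear protein-coding genes and the 8 genes. It was 55655 with the listed length and 29212 in the second quantification. Genes that differed between libraries numbered 3518 to 5192 with 1 replicate left out, against 6645, fewest without replicate 1; each of these tests 2 libraries in place of 3. The second quantification called 8798 of 15861 genes, total-count scaling 7012 and DESeq2 size factors 6642. The common coefficient of variation was 11.3% to 18.4% with 1 replicate left out, against 14.4%, and highest without replicate 2. At 5 TPM in place of 1 TPM, 50 in place of 86 partner genes were detected in every library. The 5 ratios kept their sign on average under every alternative run, and the ratio of HEXIM to cyclin T messages came to a log2 value of -0.04 with coding transcripts only, against -0.70. Apart from the lost and gained calls given above, no call on the 8 genes changed. Depth limits Hexim2 (42 to 78 counts) and the copies of 7SK.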
